A study of Homo sapiens with 6 samples.

Results

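The cytosolic heat shock chaperones and HSF1 were examined as a set of 10 genes chosen by symbol, namely HSF1, HSPA1A, HSPA1B, HSPA8, HSPH1, HSP90AA1, HSP90AB1, DNAJB1, HSPB1 and BAG3. All 10 were found among the 35474 genes listed in the deposited tables, and all 10 passed the filter on low counts. The cells were A549, an established human lung adenocarcinoma line. In the siBAP18 group, 3 cultures received siRNA against BAP18, a chromatin-associated protein encoded by C17orf49, and in the siCtrl group 3 cultures received a siRNA without a target. RNA was taken from both groups 48 h after transfection, and all cultures were therefore transfected cells of 1 line. No culture was described as heat-treated, so the values are levels under ordinary culture conditions.

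Heat shock proteins are chaperones that hold, fold or hand on other proteins. HSF1 is the transcription factor that activates their genes when unfolded proteins accumulate, by binding repeated GAA units called heat shock elements, and chaperones such as HSP70 and HSP90 in turn hold HSF1 inactive. HSP70 proteins work with J-domain proteins, which deliver clients, and with nucleotide exchange factors such as HSPH1 and BAG3, which release them. Cancer cells commonly keep high chaperone levels without heat. Among the genes below, HSPA1A, HSPA1B and HSP90AA1 are the inducible forms of HSP70 and HSP90, and HSPA8 and HSP90AB1 are the constitutive forms.

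Library totals lay between 46035635 and 53657450 counts in siCtrl and between 42094524 and 56548620 in siBAP18. C17orf49 had 743, 751 and 705 counts in siCtrl and 120, 137 and 108 in siBAP18, so the knockdown was present in every library. Of 7 markers chosen for A549, KRT8 and KRT18, keratins of simple epithelia, reached mean levels of 1948 and 1859 RPKM in siCtrl. The endothelial genes PECAM1 and VWF and the muscle gene DES lay at or under 0.0922 RPKM on average in both groups. In siBAP18, 6 of the 7 A549 markers passed the test used below as lower and 0 as higher, against 25.1% lower and 24.5% higher among all genes tested, with log2 fold changes from −0.96 to 0.15. Mitochondrial genes took between 6.86% and 7.43% of counts in siCtrl and between 5.27% and 6.14% in siBAP18. The part of either in the results below was not tested.

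The 10 genes together took between 0.871% and 0.884% of all counts in the siCtrl libraries and between 0.776% and 0.811% in the siBAP18 libraries. The 2 ranges did not overlap. This sum weighs the most abundant genes most. HSP90AB1 took a mean of 0.436% in siCtrl and 0.411% in siBAP18, and HSP90AA1 took 0.131% and 0.0879%. In contrast, HSF1, DNAJB1, HSPB1 and BAG3 took a larger mean share in siBAP18, so the sum does not describe each gene. In bulk RNA, fewer cells with a transcript and less transcript per cell cannot be told apart. Levels between genes were compared as RPKM, the deposited count scaled to listed gene length and to the library total. In siCtrl, HSP90AB1 was the most abundant at 1464 ± 20.6 RPKM (SD, n = 3), followed by HSPA8 at 322.2 ± 12.6, HSP90AA1 at 250.3 ± 2.69, HSPA1B at 229.2 ± 6.67 and HSPA1A at 161.9 ± 3.36. HSPB1 (73.2 ± 2.45 RPKM), BAG3 (59.3 ± 0.751) and DNAJB1 (46.6 ± 1.12) were intermediate, and HSPH1 (10.5 ± 0.210) and HSF1 (6.07 ± 0.137) were lowest. The ranges of neighbours in this order did not overlap. In siBAP18 the order changed at 2 places. HSPA1B (170.5 ± 4.88 RPKM) and HSP90AA1 (167.4 ± 16.0) then had overlapping ranges, as did HSF1 (7.00 ± 0.707) and HSPH1 (6.16 ± 0.413). This order depends on the listed gene lengths. By mean CPM, defined below and not scaled to length, DNAJB1 (171.4) lay above BAG3 (163.2) and HSPB1 (119.8) in siCtrl. In siBAP18, mean CPM was 877.3 for HSP90AA1 against 429.9 for HSPA1B, and 51.6 for HSPH1 against 37.2 for HSF1.

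**Figure D1:**
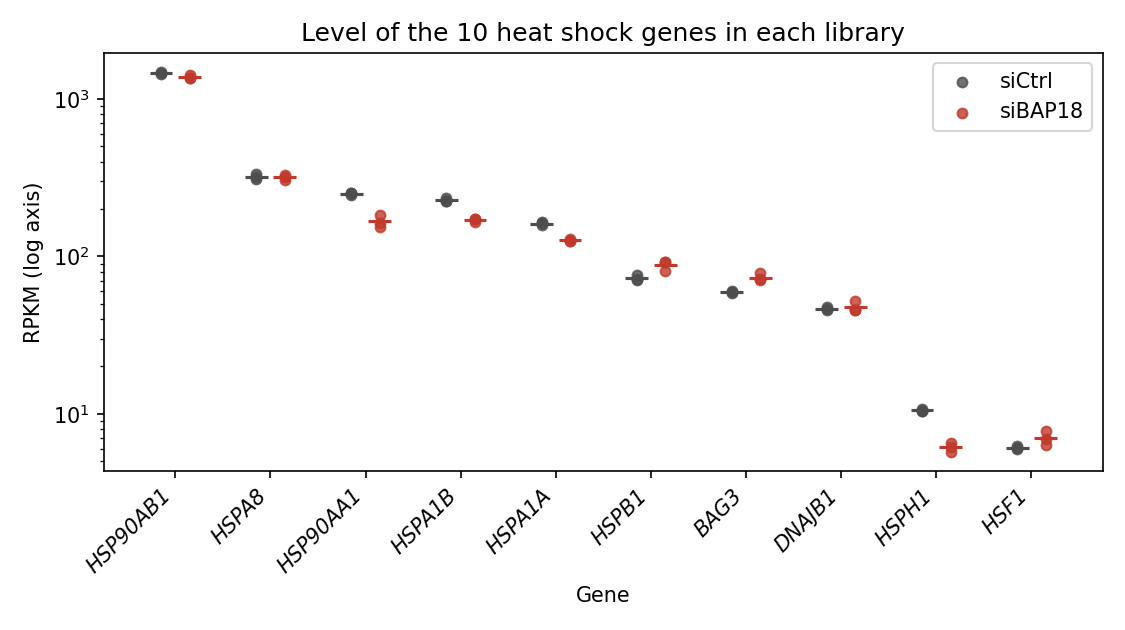
RPKM (log axis) of the 10 heat shock genes in the 3 siCtrl and 3 siBAP18 libraries. Each point is 1 library and each bar the group mean. The constitutive HSP90AB1 lies highest in both groups, and HSPH1 and HSF1 lie lowest.

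The groups were compared with edgeR's quasi-likelihood test on counts, with Benjamini-Hochberg adjustment over the 20776 genes tested. At an adjusted p under 0.05, 4 of the 10 genes were lower in siBAP18 (HSPH1, HSP90AA1, HSPA1B and HSPA1A) and 3 were higher (BAG3, HSPB1 and HSF1). Of all genes tested, 25.1% were lower and 24.5% higher at this threshold, so no shift of the set as a whole was read from these counts. None of the 10 passed the study's second threshold, an absolute log2 fold change over 1, which together with the adjusted p held for 8.46% of all genes tested. The median log2 fold change of the 10 genes was −0.058, and that of all genes tested was 0.0010. In 7 of the 10 the groups did not overlap, as in 56.6% of all genes tested.

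**Figure D2:**
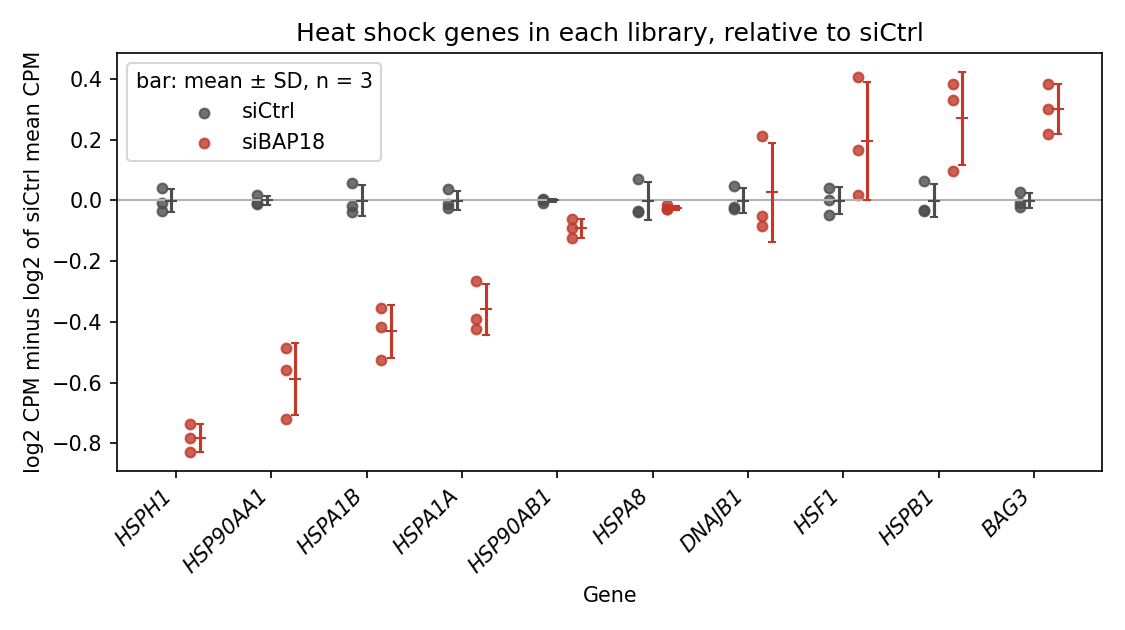
Log2 CPM of each library minus the log2 of the siCtrl mean CPM, for the 10 heat shock genes ordered by log2 fold change. Points are libraries and bars are the mean ± SD of 3. The siBAP18 points of HSPH1, HSP90AA1, HSPA1B and HSPA1A all lie below their siCtrl points, and those of HSPB1 and BAG3 all lie above.

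HSF1, the regulator (chromosome 8, 144291591 to 144314722, + strand, GRCh38), was at 32.4, 31.3 and 33.3 CPM in siCtrl and 36.2, 32.7 and 42.8 CPM in siBAP18, where CPM is the count scaled to a common library total after TMM normalization. The groups overlapped, and siBAP18 replicate 3 stood above the other libraries. The log2 fold change was 0.20 (SE, the standard error, 0.0822, adjusted p = 0.0436, edgeR). Without siBAP18 replicate 3 it was 0.096 (adjusted p = 0.23, edgeR), and the call was also lost without any single siCtrl library and without siBAP18 replicate 1. Of its 5307 listed exon bases, 139 are shared with DGAT1 and 133 with GS1-393G12.12, both on the opposite strand. Among 69 chaperone genes compared by their centred log2 CPM over the 6 libraries, the genes most like HSF1 were FKBP4, a co-chaperone of HSP90 (root mean square difference 0.042), TRAP1 (0.052) and SERPINH1 (0.068). In each of them, as in HSF1, siBAP18 replicate 3 was the highest library, so the likeness includes that library. A shared regulation was not tested.

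The heat-inducible HSP70 genes HSPA1A and HSPA1B lie side by side on chromosome 6, at 31815464 to 31817946 and 31827735 to 31830255, both on the + strand, and are near-identical copies. Of the distinct stretches of 150 bases, the stated read length, in GENCODE 29 transcripts of HSPA1A, 63.2% also occur in HSPA1B transcripts, and 27.3% of those of HSPA1A and 32.5% of those of HSPA1B occur in the noncoding transcript AL671762.1, which was not analysed here. The division of reads among them is therefore uncertain. HSPA1A was at 413.2, 399.3 and 396.1 CPM in siCtrl and 307.3, 300.7 and 335.4 CPM in siBAP18. HSPA1B was at 602.5, 563.4 and 571.3 CPM in siCtrl and 433.9, 402.4 and 453.2 CPM in siBAP18. Every siBAP18 library was lower than every siCtrl library for both genes. The log2 fold change was −0.36 for HSPA1A (SE 0.0667, adjusted p = 7.55e-05, edgeR) and −0.43 for HSPA1B (SE 0.0677, adjusted p = 8.59e-06, edgeR). With the counts of both genes added before the fit, which does not cover reads of AL671762.1, the log2 fold change was −0.40 (adjusted p = 2.20e-05, edgeR). Besides HSPA1B (root mean square difference 0.045), the chaperone genes most like HSPA1A over the 6 libraries were HSPB11 (0.076) and HSPE1 (0.082), the latter the co-chaperonin of mitochondrial HSP60.

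HSPA8, the constitutive HSP70 of the cytosol (chromosome 11, 123057489 to 123063230, − strand), was at 1645, 1528 and 1525 CPM in siCtrl and 1549, 1536 and 1537 CPM in siBAP18. The groups overlapped, and the log2 fold change was −0.024 (SE 0.0659, adjusted p = 0.793, edgeR). Of the 4849 listed exon bases of HSPA8, 88 are shared with SNORD14C and 87 with SNORD14D, both on the same strand. The RPKM ratio of HSPA1A to HSPA8 within a library was 0.491, 0.510 and 0.507 in siCtrl and 0.387, 0.382 and 0.426 in siBAP18. This ratio, which does not depend on how libraries are scaled, had no overlap between groups and differed by −0.34 on the log2 scale (p = 0.1, two-sided exact permutation test, the smallest p that 3 libraries against 3 can give). HSPH1, an HSP110 that acts as nucleotide exchange factor for HSP70 (chromosome 13, 31134974 to 31162388, − strand), had the largest fold change of the 10 genes. It was at 91.3, 86.6 and 88.1 CPM in siCtrl and 51.5, 53.3 and 49.9 CPM in siBAP18, a log2 fold change of −0.78 (SE 0.0662, adjusted p = 3.90e-10, edgeR), or 1.72-fold lower.

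The cytosolic HSP90 proteins hold kinases, steroid receptors and HSF1 itself. HSP90AA1, the inducible form (chromosome 14, 102080738 to 102139699, − strand), was at 1309, 1307 and 1333 CPM in siCtrl and 799.2, 939.1 and 893.7 CPM in siBAP18. All siBAP18 libraries were lower, and the log2 fold change was −0.59 (SE 0.0700, adjusted p = 1.39e-07, edgeR), a fold of 0.666. HSP90AB1, the constitutive form (chromosome 6, 44246166 to 44253888, + strand), was at 4350, 4386 and 4377 CPM in siCtrl and 4011, 4107 and 4186 CPM in siBAP18. Its libraries did not overlap, but the log2 fold change of −0.092 (SE 0.0655) did not pass the threshold (adjusted p = 0.258, edgeR). The RPKM ratio of HSP90AA1 to HSP90AB1 was 0.171, 0.169 and 0.173 in siCtrl and 0.113, 0.130 and 0.121 in siBAP18. It differed by −0.50 on the log2 scale, again with no overlap (p = 0.1, two-sided exact permutation test, the smallest possible). Over the 2 ratios tested, the Benjamini-Hochberg adjusted value was 0.1 for each. Of the 5248 listed exon bases of HSP90AA1, 197 are shared with WDR20 on the opposite strand.

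**Figure D3:**
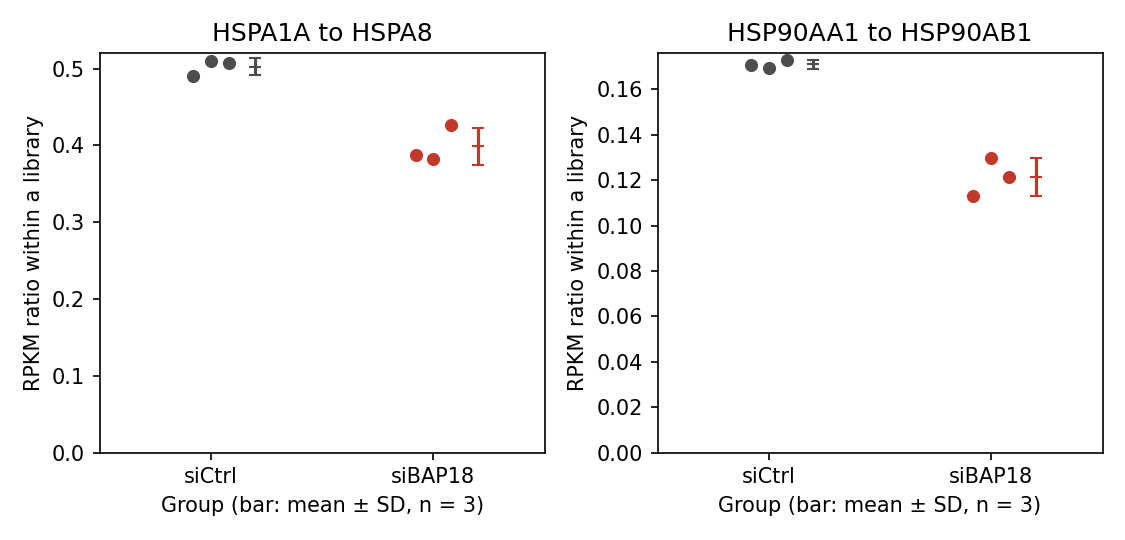
RPKM ratio within each library of an inducible to a constitutive form, for HSPA1A to HSPA8 (left) and HSP90AA1 to HSP90AB1 (right). Points are libraries, bars are the mean ± SD of 3, and both axes start at 0. Both ratios are lower in all 3 siBAP18 libraries than in any siCtrl library.

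DNAJB1, the J-domain partner of HSP70 (chromosome 19, 14514770 to 14529770, − strand), was at 177.2, 168.2 and 168.9 CPM in siCtrl and 165.5, 161.9 and 198.7 CPM in siBAP18. The siBAP18 libraries lay on both sides of the siCtrl libraries, and the log2 fold change was 0.032 (SE 0.0743, adjusted p = 0.75, edgeR). Without siBAP18 replicate 3 its direction turned, at −0.065 (adjusted p = 0.334, edgeR). Of its 3672 listed exon bases, 228 are shared with TECR on the opposite strand. HSPB1, the small heat shock protein also called HSP27, which binds unfolded proteins without ATP (chromosome 7, 76302544 to 76304295, + strand), was at 125.2, 117.1 and 117.3 CPM in siCtrl and 150.6, 128.2 and 156.5 CPM in siBAP18. All siBAP18 libraries were higher, siBAP18 replicate 2 by the least. The log2 fold change was 0.28 (SE 0.0735, adjusted p = 0.00292, edgeR), or 1.21-fold. BAG3, the exchange factor that joins HSP70 to small heat shock proteins in selective autophagy (chromosome 10, 119651370 to 119677819, + strand), was at 166.5, 160.9 and 162.2 CPM in siCtrl and 212.8, 190.0 and 201.3 CPM in siBAP18. The groups did not overlap, and the log2 fold change was 0.30 (SE 0.0662, adjusted p = 4.46e-04, edgeR), or 1.23-fold.

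Promoter sequence of the genes was read from RefSeq (GRCh38.p14) for 250 bases before and 50 bases after each listed start, to show where heat shock elements stand in genes that fell, rose or did not pass the test. Windows were held for 9 of the 10 genes, all but HSF1, and some genes had more than 1 start. A pair of opposed units was searched as GAANNTTC and TTCNNGAA, which each read the same on both strands. A pair stood in at least 1 window of 7 of the 9 genes, and in 13.5% of all 35116 windows and 16.2% of all 27305 genes. A pair followed by another opposed unit, in either form and with overlaps allowed, stood in windows of 3 of the 9 (HSPA8, HSP90AA1 and HSP90AB1) and in 0.608% of all genes. These 3 genes included 1 that fell and 2 that did not pass the test. No pair was found in the windows of HSPH1, which fell, or of BAG3, which rose. Only exact pairs inside these windows were searched, so elements elsewhere or with differing letters would have been missed. HSP90AA1, HSP90AB1 and DNAJB1 also had windows without a pair. The stretches shown for these genes and HSPA8 lie inside the listed gene, before a start within it. Distances are to the RefSeq start that the window surrounds, and not to the gene ends printed above. For HSPA1A, HSPA1B and HSPB1 this start also lies within the listed gene. DNAJB1 and HSPA8 each held a second stretch, not shown. Capitals mark the matching GAA and TTC letters, and each stretch runs 5′ to 3′ on the strand of its gene.
HSPA1A, chr6:31815417-31815464, + strand, units 106 to 99 bases before the start: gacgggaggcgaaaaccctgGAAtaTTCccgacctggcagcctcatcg
HSPA1B, chr6:31827613-31827660, + strand, units 105 to 98 bases before the start: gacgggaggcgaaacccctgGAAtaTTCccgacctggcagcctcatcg
HSP90AA1, chr14:102087085-102087152, − strand, units 88 to 61 bases before the start: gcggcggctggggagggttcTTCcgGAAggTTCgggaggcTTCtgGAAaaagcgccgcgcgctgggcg
HSP90AB1, chr6:44247758-44247863, + strand, units 165 to 100 bases before the start: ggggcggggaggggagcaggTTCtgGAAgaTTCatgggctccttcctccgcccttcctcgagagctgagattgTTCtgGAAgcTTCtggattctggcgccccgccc
HSPA8, chr11:123062159-123062211, − strand, units 55 to 43 bases before the start: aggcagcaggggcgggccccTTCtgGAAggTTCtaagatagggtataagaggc
DNAJB1, chr19:14518417-14518494, − strand, units 77 to 40 bases before the start: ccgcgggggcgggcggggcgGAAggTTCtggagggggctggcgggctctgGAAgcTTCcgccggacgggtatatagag
HSPB1, chr7:76302471-76302518, + strand, units 182 to 175 bases before the start: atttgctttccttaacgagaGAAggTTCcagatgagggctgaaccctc

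The stretches of HSPA1A and HSPA1B were identical at 47 of 48 bases. HSP90AA1, which fell, and HSP90AB1 and HSPA8, which did not pass the test, all carried the longer form. A match of letters is a description and not a measured binding site, and no binding of HSF1 was measured here. Words complementary to guide bases 2 to 8 of the study's 3 BAP18 siRNAs were also searched in the longest GENCODE 29 3′ untranslated region of each gene, because the study's methods do not state which siRNA these cultures received. None of the 10 genes held the word AATCACA (siBAP18#1), AAGATTC (siBAP18#2) or ACTCAAC (siBAP18#3), which were found in 13.4%, 10.6% and 6.72% of 16762 genes with such a region. The regions of the 10 genes ran from 122 bases (HSPB1) to 2344 bases (HSPH1), and these shares were not adjusted for length. The siCtrl guide was not searched, and an effect of any guide on these genes was not tested.

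To place these genes in the wider chaperone network, 66 other chaperone genes were listed in 8 groups, of which 60 were tested. At an adjusted p under 0.05 (edgeR), 17 of these 60 were higher and 17 lower in siBAP18, beside 24.5% higher and 25.1% lower among all genes tested, with a median log2 fold change of 1.35e-04. The same shares are the background of the count in each list that follows, and nothing particular to a list was read from its count. Without siCtrl replicate 1, 10 were lower and 16 higher. That fit called 8967 of all 21207 genes it tested, in either direction. The fold change threshold was passed as well by 4 of the 60, beside 8.46% of all genes tested, and these were HSPA6, HSPB8, DNAJB2 and DNAJB5, all higher. Of these, HSPA6 passed the filter on low counts only through its siBAP18 libraries.

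**Figure D4:**
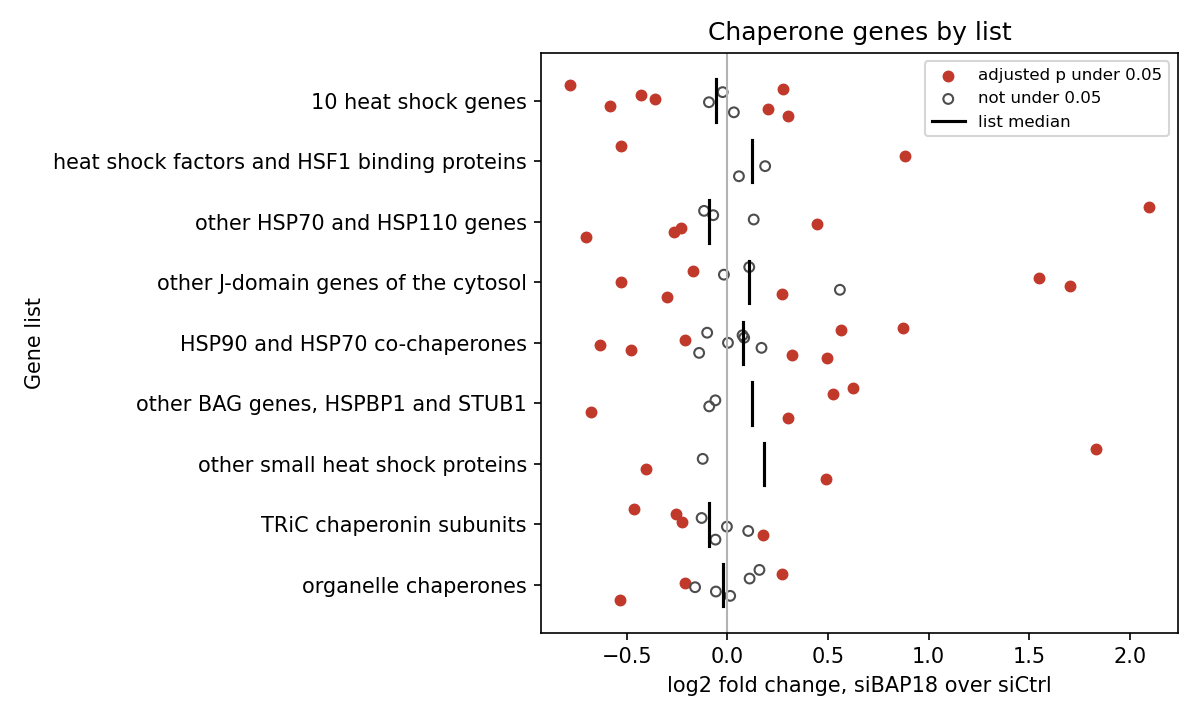
Log2 fold change (siBAP18 over siCtrl) of each tested gene in the set of 10 heat shock genes and in 8 lists of other chaperone genes. Filled points have an adjusted p under 0.05 (edgeR), open points do not, and black bars are list medians. Genes of every list lie on both sides of 0, and the 4 largest rises lie at 1.55 (DNAJB5) or above.

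HSPB8, a small heat shock protein that forms a complex with BAG3, was at 2.69, 2.92 and 2.91 CPM in siCtrl and 11.0, 10.3 and 8.88 CPM in siBAP18. All siBAP18 libraries were higher, and it rose 3.56-fold (log2 fold change 1.83, SE 0.118, adjusted p = 2.70e-12, edgeR). Among the other small heat shock proteins, 4 of 9 were tested, of which 2 were higher and 1 lower (median log2 fold change 0.18). CRYAB, the αB-crystallin chaperone, was higher (log2 fold change 0.49, adjusted p = 0.0418, edgeR), but not in 4 of the 6 fits that left out 1 library, those without siCtrl replicate 2 or 3 or siBAP18 replicate 1 or 3 (adjusted p from 0.0624 to 0.167). The CRYAB call was also lost with the DESeq2 Wald test (adjusted p = 0.0571) and in the 3 limma fits on RPKM (adjusted p from 0.0656 to 0.126). HSPB11, which serves in intraflagellar transport, was lower (−0.40, adjusted p = 8.21e-04), and HSPB6 did not pass (−0.12, adjusted p = 0.85).

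Among the other BAG genes, HSPBP1 and STUB1, 3 of 6 were higher and 1 lower (median log2 fold change 0.12). STUB1, the ubiquitin ligase CHIP that marks chaperone clients for degradation, rose 1.54-fold (log2 fold change 0.62, adjusted p = 3.12e-07, edgeR). HSPBP1 (0.53) and BAG1 (0.30), both exchange factors of HSP70, were higher, and BAG2, an inhibitor of STUB1, was lower (−0.68, adjusted p = 6.15e-07).

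Of the other J-domain genes of the cytosol, 3 of 9 were higher and 3 lower (median log2 fold change 0.11). DNAJB2, a neuronal J-domain protein that binds ubiquitinated clients, was at 25.1, 25.7 and 26.3 CPM in siCtrl and 84.6, 76.7 and 89.4 CPM in siBAP18. It rose 3.25-fold (log2 fold change 1.70, SE 0.0731, adjusted p = 1.13e-15, edgeR). DNAJB5 rose as well (1.55, adjusted p = 2.74e-11), whereas DNAJB4 (−0.53) and DNAJA1 (−0.30, adjusted p = 7.56e-04), a farnesylated HSP70 partner, were lower. DNAJA4 was low in all libraries, with 15, 27 and 24 counts in siCtrl and 48, 36 and 20 in siBAP18, and did not pass the test (0.56, adjusted p = 0.189). Its log2 fold change was 0.29 without siCtrl replicate 1, 0.30 without siBAP18 replicate 1 and at most 0.76 with another library left out, and it passed in none of these 6 fits.

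Of the other HSP70 and HSP110 genes, 2 of 8 were higher and 3 lower (median log2 fold change −0.093). HSPA6, an HSP70 that is nearly silent without heat, had 8, 4 and 7 counts in siCtrl and 44, 27 and 16 in siBAP18. It was higher in every siBAP18 library, by 2.09 on the log2 scale (SE 0.448), while its mean level stayed at 0.555 ± 0.222 CPM (SD, n = 3) in siBAP18. HSPA6 passed the filter on low counts only through its siBAP18 libraries, where it was high. Its adjusted p (3.57e-04, edgeR) was therefore not read as support for the rise. Of its distinct stretches of 150 bases, 15.2% also occur in the pseudogene HSPA7. HSPA12A was lower (−0.70, adjusted p = 4.89e-07). HSPA1L, the neighbour of HSPA1A, was higher (0.44, adjusted p = 0.015), but not without siCtrl replicate 2 or siBAP18 replicate 1 (adjusted p = 0.108 and 0.0945). HSPA14, a ribosome-associated HSP70, was lower (−0.23, adjusted p = 0.0201), but not without siCtrl replicate 1 or 3 (adjusted p = 0.0734 and 0.0978).

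Among 13 co-chaperones of HSP90 and HSP70, 4 were higher and 3 lower (median log2 fold change 0.075). UNC45A, a myosin chaperone that works with HSP90, rose 1.83-fold (0.87, adjusted p = 3.16e-10, edgeR). TTC4 (0.57) and AHSA1 (0.49, adjusted p = 1.12e-06), the activator of the HSP90 ATPase, were higher as well. FKBP5, a co-chaperone induced by glucocorticoids, was lower (−0.63, adjusted p = 1.17e-07).

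Of the TRiC subunits, which form the cytosolic chaperonin for actin and tubulin, 3 of 8 were lower and 1 higher (median log2 fold change −0.094). TCP1 was lower (−0.46, adjusted p = 3.95e-06, edgeR). CCT8 (−0.25) and CCT6A (−0.22) were lower and CCT3 (0.18) higher, but each of these 3 calls was lost in some fits that left out 1 library. The adjusted p reached 0.124 for CCT8 (lost without siCtrl replicate 1 or 2 or siBAP18 replicate 3), 0.101 for CCT6A (lost in every such fit except that without siBAP18 replicate 2) and 0.172 for CCT3 (lost without any siCtrl library or siBAP18 replicate 1). Without siBAP18 replicate 3 the log2 fold change was −0.11 for both CCT8 and CCT6A.

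Of 8 organelle chaperones, 1 was higher and 2 lower (median log2 fold change −0.022). HSP90B1, the HSP90 of the endoplasmic reticulum, was lower (−0.53, adjusted p = 3.77e-07, edgeR), and SERPINH1, a collagen chaperone that HSF1 activates, was higher (0.27, adjusted p = 0.00356). HSPE1 was lower (−0.21, adjusted p = 0.00819), but not without siCtrl replicate 1 (adjusted p = 0.0514). TRAP1, the mitochondrial HSP90, did not pass (0.16, adjusted p = 0.0714) but did so without siBAP18 replicate 2 (0.23, adjusted p = 0.00267). Of 4 tested heat shock factors and HSF1 binding proteins, HSF4 was lower (−0.53, adjusted p = 1.02e-04, edgeR) and HSF2BP, a partner of HSF2, was higher (0.88, adjusted p = 1.35e-04). HSF2 (0.19, adjusted p = 0.163) and HSBP1, a binding protein of HSF1 (0.057, adjusted p = 0.486), did not pass, although HSF2 did without siBAP18 replicate 3 (0.28, adjusted p = 0.0264).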

How the data were processed

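Poly(A) RNA of 6 A549 cultures was sequenced. The authors deposited counts per gene, without normalization, and RPKM values computed from those counts, the listed gene length and the column total. The labels describe strand-specific libraries, but the counting program and its use of strand are not given in the sources used here. The sample labels name the genome builds hg38 and GRCm38, the latter a mouse build. Of the 35474 listed genes, 24574 had a symbol found in GENCODE 29 (GRCh38). Exon positions overlapped the GENCODE 29 gene of the same symbol for 24179 of these. Counts passing filterByExpr (20776 of 35474 genes) were scaled by TMM and compared with edgeR 4.0.16 in R 4.3.3 (quasi-likelihood test, Benjamini-Hochberg adjustment over all genes tested). Standard errors are the log2 fold change over the square root of F. DESeq2 1.42.0 and limma 3.58.1 served as alternatives, and ratios were compared by exact permutation. No 2 libraries of a group were copies (chi-square per degree of freedom at least 4.17). This value was 4.17 to 4.87 between siCtrl libraries and 11.0 to 25.8 between siBAP18 libraries, which thus differed more, replicates 2 and 3 the most. A count of 0 allows up to 3 counts, for counting error only. The tests were checked on simulated data.

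The 10 genes and the lists were chosen with earlier results of these data known. Named genes were these 10, C17orf49, up to 4 genes per list with the smallest adjusted p, HSPA6, DNAJA4, and the 3 list genes most like HSF1 and HSPA1A. HSF5, PTPRC and CD3E were not analysed here. Sequences came from RefSeq and GENCODE 29 and were read with Python 3.11.15.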

Additional observations from a re-analysis of the deposited data

How the results depend on the processing

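The count of the 10 heat shock genes called lower stayed at 4 in all 6 fits that left out 1 library and was 3 or 4 under other scaling, filters, tools and units (3 with HSPA1A and HSPA1B added to 1 gene). The count called higher was 2 or 3, the difference being HSF1. With the fold change threshold as well, 0 were higher and 0 lower, and 4 other chaperone genes were higher and 0 lower. Of all genes tested, 8.46% passed both thresholds. HSPA6, counted among these 4, passed the filter on low counts only through its siBAP18 libraries, so its call was not read as support. With 1 library left out, between 10 and 19 other chaperone genes were called lower and between 14 and 20 higher. The number of all genes called in either direction moved as well. It ran from 8967 of 21207 tested (without siCtrl replicate 1) to 10602 of 21139 (without siBAP18 replicate 2). Nothing particular to the chaperone genes was read from these ranges. Of 179 single values of the 10 genes under alternatives, 167 kept their direction and side of the threshold and 10, all of HSF1, lost the call. These were the DESeq2 Wald test (adjusted p = 0.0508), no filter on low counts (0.0555), the 3 limma fits on RPKM (0.0735 to 0.139) and 5 fits that left out 1 library. With 1 library left out, HSPA8 ranged from −0.045 to 0.0080 (turned without siCtrl replicate 1), DNAJB1 from −0.065 (turned without siBAP18 replicate 3) to 0.087, and HSPB6 from −0.41 to 0.204 (turned without siCtrl replicate 2, at 0.195, and siBAP18 replicate 2). The causes were not tested. HSPH1 stayed between −0.80 and −0.69 and HSP90AA1 between −0.64 and −0.52 in all alternatives. The log2 difference of the HSPA1A to HSPA8 ratio ranged from −0.39 to −0.31 and that of HSP90AA1 to HSP90AB1 from −0.55 to −0.45. Replicate numbers were not taken to pair the libraries in the main fit. Residuals of replicate 1 correlated at 0.072 (0.22 and 0.11 for replicates 2 and 3), and each of the 6 libraries correlated best with its own number. Whether the numbers pair the libraries was not settled by these values. With a replicate block, 3 of the 10 genes were higher and 4 lower, 19 other chaperone genes were higher and 18 lower, and TRAP1 passed (0.16, adjusted p = 0.0225), as it did with total counts only (adjusted p = 0.0416). HSF1 kept its call with this block (0.20, adjusted p = 0.0165, edgeR). CCT6A and CCT8 did not pass with total counts only (adjusted p = 0.0667 and 0.076) or in the 3 limma fits on RPKM (0.151 to 0.301 and 0.175 to 0.341), and HSPA1L did not pass with limma without a filter (0.0984). On the log2(RPKM + 1) scale, which understates changes of low genes, the log2 fold change was 0.815 for DNAJB5, 1.18 for HSPB8, 0.497 for HSF2BP and −0.437 for BAG2, and all 4 stayed called. HSPA6 was too low to be tested with at least 10 counts in every library or with a mean RPKM of at least 0.5. In the limma fit on log2(RPKM + 1) without a filter, its log2 fold change was 0.226 (adjusted p = 0.0361).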
